A study of Danio rerio with 14 samples.

Results

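Transcript levels were compared between eyes of zebrafish larvae that had been exposed to propylthiouracil (PTU) and then kept in clean water, and eyes of control larvae of the same age. The groups met directly on 4 two-colour arrays, of 14 in the series, which carried RNA of both groups at 8 days post fertilization (dpf). They held 6 of the 12 RNA extracts, 3 of PTU 8 dpf and 3 of control 8 dpf, and each array was read as PTU over control. All larvae were of the wild-type AB strain. PTU 8 dpf larvae had received 350 mg/L PTU from fertilization until 5 dpf and then 3 days of clean water, and control 8 dpf larvae had had the same 3 days after raising without PTU. PTU 5 dpf and control 5 dpf larvae, sampled when exposure ended, serve to set the effect at 8 dpf against that at 5 dpf, and because some arrays pair the ages, their arrays also entered the estimates at 8 dpf. Each extract pooled the eyes of 10 larvae, so that single larvae cannot be told apart, and larvae were sampled within a few hours of the morning.

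PTU blocks the synthesis of thyroid hormones in the thyroid gland. In the eye these hormones act through nuclear receptors and take part in the choice among cone types and in the maturation of the retina. The larval zebrafish eye holds a lens rich in crystallins, a retina with rods, several spectral classes of cones, interneurons, ganglion cells and Mueller glia, a pigment epithelium, a cornea and resident immune cells. Since whole eyes were pooled, fewer cells of a type and less RNA per cell cannot be told apart in any of the values below.

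The arrays give ratios and no levels, so the tissue label could be checked only by which genes had passed the authors' filter on dim spots. These included 54 lens genes, 36 genes of phototransduction and 7 visual opsins, but also 34 genes of striated muscle, 14 of liver and plasma and 14 of gut and pancreas. Turned to PTU over control, the 4 arrays correlated with one another across 16913 probes at r = 0.404 to 0.785. The 3 lowest values (0.404, 0.563 and 0.650) all involved the array of PTU replicate 1 and control replicate 2. Its residual spread was 0.406 on the log2 scale, against 0.196 to 0.308 for the other 13 arrays of the series, and it correlated at r = 0.735 with an array of replicate 2 of PTU 5 dpf and replicate 1 of control 5 dpf, with which it shared no extract. Counts of transcripts and genes called after the days in clean water, in all and by gene group, were therefore also obtained without this array. So were counts of differences between the ages. The choice was made after the data were seen. Other counts come from the fit of all arrays alone. Among them are genes without overlap of extracts, calls at 5 dpf or shared between the ages, and counts by unadjusted p. Whether the extracts of the array left out are those that its labels give was not tested. PTU replicate 1 also differed from the other PTU extracts in muscle genes. Their mean log2 level was 0.447, −0.148 and −0.258 in PTU-exposed eyes, against −0.017, 0.068 and −0.051 in control eyes.

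Gene expression differed in PTU 8 dpf eyes after 3 days in clean water. Of 16913 transcripts, 647 (3.83%) were up-regulated and 434 (2.57%) down-regulated, where a call needed an adjusted p under 0.05 and a change of more than 0.75 on the log2 scale (1.68-fold). For genes, the probes of a gene were averaged, and rose and fell are kept below for genes whose adjusted p in limma, over all 8445 genes, was under 0.05. By this rule 1651 genes (19.6%) rose and 1116 (13.2%) fell, and the counts of the gene groups below are to be read against these shares. The log2 fold change was beyond 1 for 163 of the genes that rose and beyond −1 for 103 of those that fell, and its median over all genes was 0.01. In 1740 genes (20.6%) the 3 PTU extracts all lay above the 3 control extracts, and in 1241 (14.7%) all below. With the 4 arrays of 8 dpf alone 968 genes rose and 575 fell. Without the array that stood apart 1715 genes rose and 1238 fell. Of these last, 1489 and 956 were the same genes as above, and none had changed direction. Without replicate 3 of control 8 dpf, 1003 genes rose and 703 fell, and without replicate 1 of control 8 dpf, 732 fell. Here and below, an extract was left out together with every array that carried it. Replicate 3 of control 8 dpf was on 2 of the 4 arrays that pair the groups at 8 dpf, as was replicate 1 of PTU 8 dpf. A trait of an extract and the loss of its arrays therefore cannot be told apart in these counts.

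**Figure D1:**
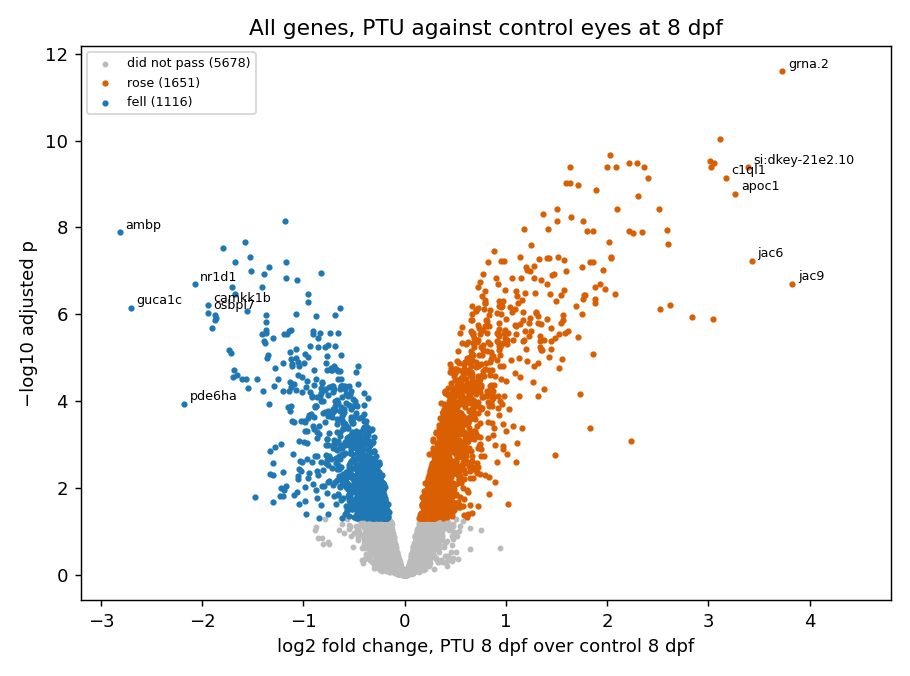
Each point is 1 of 8445 genes, with the log2 fold change of PTU 8 dpf over control 8 dpf on the x axis and −log10 of the adjusted p on the y axis. Orange genes rose (1651) and blue genes fell (1116). Named are the 6 largest rises and the 6 largest falls among genes whose extracts did not overlap, with jac9 (3.83) farthest to the right and ambp (−2.81) farthest to the left of these.

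Secreted lectins and granulins, macrophage proteins and several genes without a descriptive name had the largest rises. Levels are given per extract, for replicates 1, 2 and 3 of a group, as log2 values relative to the mean of the 3 control 8 dpf extracts. grna.2, a granulin gene that encodes secreted cysteine-rich peptides, stood at 3.73, 3.66 and 3.79 in PTU-exposed eyes, against −0.02, 0.04 and −0.03 in control eyes. Its log2 fold change was 3.73 ± 0.10 (SE of the model, n = 3 extracts per group; adjusted p = 2.53e-12, limma). This p, like those below, draws on all 14 arrays and not on the 6 extracts of 8 dpf alone. For grna.2 the highest adjusted p in limma under the alternatives run was 2.37e-05. jac9, a gene of the jacalin-like lectins, spread more, with 3.57, 4.1 and 3.81 in PTU-exposed eyes, against −0.32, 0.62 and −0.30 in control eyes. Control replicate 2 was the highest control extract for jac9 and still lay far below the PTU extracts. Of 10 jacalin-like lectin and granulin genes 8 rose, among them grna.1 (3.02 ± 0.12) and grna (2.35 ± 0.14). Another 1 fell, and 0 without replicate 3 of control 8 dpf. The median of the list was 2.49 and its lowest value −0.54. Like the other lists, it was drawn up with earlier results of these data known, so its count may partly follow from that choice. jac7 did not pass (0.17 ± 0.10, adjusted p = 0.227) and is named after its value was seen.

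si:dkey-21e2.14 and zgc:153405, for which no role is given here, were also among the 15 largest rises. si:dkey-21e2.14 stood at 2.85, 2.53 and 2.47 in PTU-exposed eyes, against −0.31, −0.08 and 0.39 in control eyes, and zgc:153405 at 3.42, 2.49 and 2.93 in PTU-exposed eyes, against 0.26, 0.32 and −0.59 in control eyes. The groups were apart in both genes, as the rule for the largest rises requires, and zgc:110216 rose as well (2.84 ± 0.26). npc2.2, a gene of the family of lysosomal sterol carriers, had 3.02, 3.11 and 3.07 in PTU-exposed eyes, against 0.01, −0.05 and 0.04 in control eyes. Its extracts were close together within each group.

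Markers of macrophages and microglia, the phagocytes of the eye, were higher throughout. All 17 measured genes rose (17 of 17, median 1.88), and 16 rose without the array that stood apart. lcp1, which encodes the actin-bundling protein L-plastin of leukocytes, stood at 3.34, 2.91 and 3.02 in PTU-exposed eyes, against 0.01, 0.04 and −0.05 in control eyes (3.12 ± 0.11, adjusted p = 9.35e-11). apoc1, an apolipoprotein gene that zebrafish microglia express strongly, had 3.43, 3.13 and 3.15 in PTU-exposed eyes, against −0.08, 0.23 and −0.15 in control eyes. In neither gene did the extracts overlap, which the rule requires of the largest rises. lgals9l1, a galectin gene, rose by 3.03 ± 0.13, and coro1a, a regulator of actin in leukocytes, by 2.03 ± 0.08. spi1b, a transcription factor gene of myeloid cells, rose by 2.36 ± 0.10, although its 2 probes gave 1.47 and 3.26. Of genes named after their values were seen, irf8, which macrophages need in order to form, rose by 1.57 ± 0.13 and mpeg1.1, a perforin-like gene used to label macrophages, by 0.77 ± 0.10. Averaged over the 17 genes, the level was 1.94, 1.78 and 1.77 in PTU-exposed eyes, against −0.017, 0.016 and 0.001 in control eyes, and no extract stood apart from its group.

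All 5 measured genes of antigen presentation rose (5 of 5, median 1.01). cd74b, an invariant chain gene that serves class II molecules, stood at 2.28, 2.45 and 2.24 in PTU-exposed eyes, against −0.08, −0.15 and 0.23 in control eyes (2.3 ± 0.09, adjusted p = 3.32e-10). cd74a rose by 2.3 ± 0.12, and b2m, the light chain gene of class I molecules, by 1.01 ± 0.09. ccl34b.1, a chemokine gene on the macrophage list, had 2.1, 2.00 and 1.86 in PTU-exposed eyes, against 0.07, −0.01 and −0.06 in control eyes. The groups were apart in cd74b and ccl34b.1 by more than their spread. Of 7 neutrophil genes 4 rose (median 0.51), and their values were smaller, with 0.71 ± 0.09 for npsn, a protease gene.

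The lysosome breaks down proteins and lipids, and 28 of 45 of its genes rose (median 0.39). lgmn, an endopeptidase gene, stood at 1.46, 1.72 and 1.59 in PTU-exposed eyes, against −0.05, 0.04 and 0.01 in control eyes (1.58 ± 0.11, adjusted p = 5.74e-08). ctsba, a cathepsin B gene, rose by 1.36 ± 0.07, and asah1b, an acid ceramidase gene, by 1.41 ± 0.11. ctsc, another cathepsin gene, rose by 1.64 ± 0.08, but its 2 probes gave 0.39 and 2.89. Macrophages also express such genes, all 17 of their markers rose, and their part in the lysosomal values was not tested. Of 40 genes of the proteasome, which degrades tagged proteins in the cytosol, 29 rose (median 0.37), but 15 without replicate 3 of control 8 dpf. psmb10, an immunoproteasome subunit gene, rose by 0.74 ± 0.06.

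Genes of the injury response were higher as well. Of 33 genes of injury response and retina regeneration 17 rose and 3 fell (median 0.28). atf3, a stress-induced transcription factor gene, stood at 2.09, 2.01 and 2.00 in PTU-exposed eyes, against −0.08, 0.06 and 0.02 in control eyes (2.04 ± 0.14, adjusted p = 4.82e-08). mvp, the major vault protein gene, rose by 2.04 ± 0.14, and socs3a, an inhibitor gene of cytokine signalling, by 1.93 ± 0.15. The extracts of the groups did not overlap in these 3 genes. ascl1a, which marks Mueller glia that re-enter the cell cycle in injured zebrafish retina, rose by 0.54 ± 0.09 and is named after its value was seen.

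Of 9 genes of metalloproteinases and their inhibitors 7 rose (median 0.89). mmp9, a gelatinase gene, stood at 2.1, 1.49 and 1.62 in PTU-exposed eyes, against −0.05, 0.13 and −0.08 in control eyes (1.78 ± 0.15, adjusted p = 3.68e-07), and mmp14b, a membrane-bound metalloproteinase gene, rose by 1.51 ± 0.09. Of 5 complement genes 3 rose. cfp, the properdin gene, had 2.91, 2.46 and 2.34 in PTU-exposed eyes, against −0.03, −0.09 and 0.12 in control eyes, and c7b, a gene of the membrane attack complex, rose by 1.52 ± 0.10. In mmp9 and cfp alike PTU replicate 1 was the highest extract, and the groups did not overlap. For cfp, which is among the largest rises, the rule requires this. Of 15 genes of cytokines, chemokines and inflammation 5 rose, and 9 without replicate 2 of control 5 dpf. il34, a ligand gene of the macrophage growth factor receptor, rose by 1.14 ± 0.08.

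**Figure D2:**
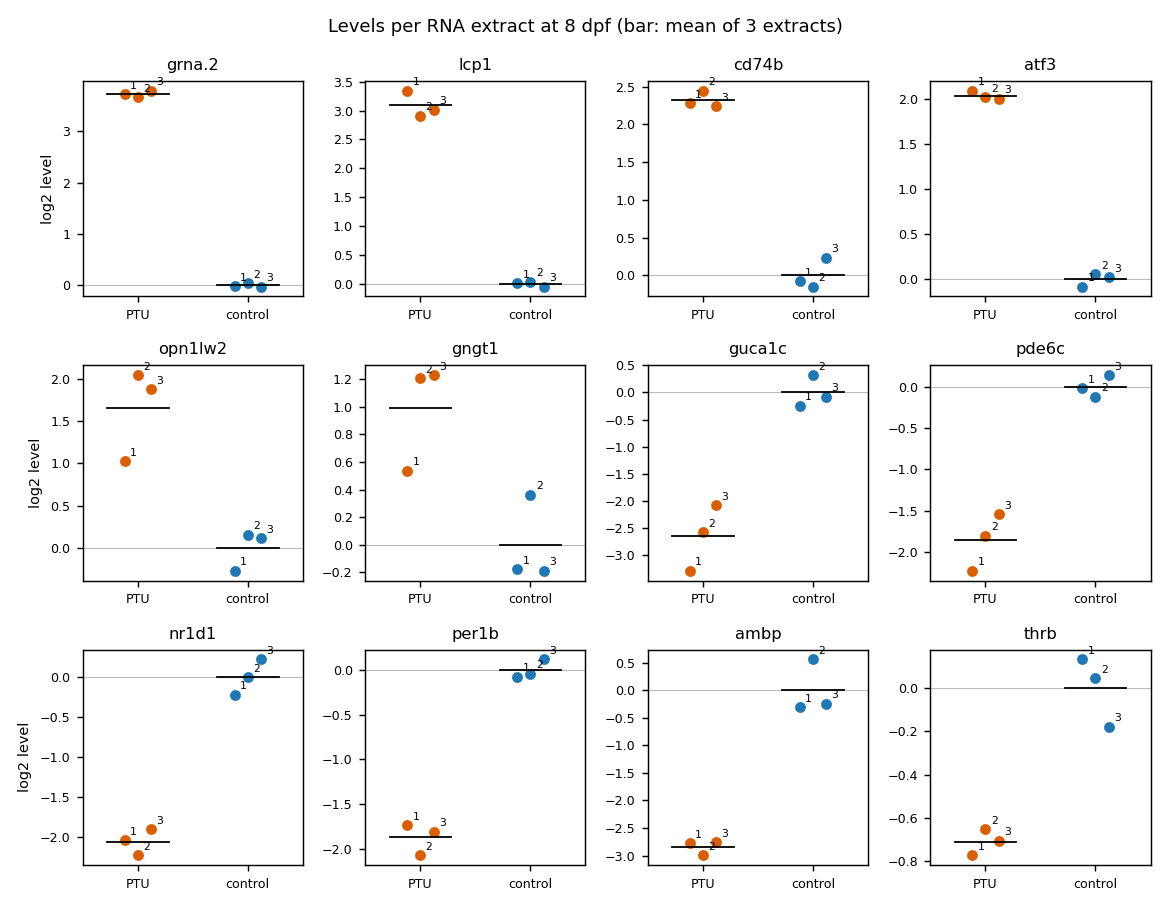
Log2 levels of 12 genes in the 3 PTU 8 dpf extracts (left, orange) and the 3 control 8 dpf extracts (right, blue), relative to the mean of the controls. Points carry the replicate number and bars are group means. The groups do not overlap in any of the 12 genes, with the highest mean for grna.2 and the lowest for ambp in PTU-exposed eyes. The genes were chosen with values in view, and the largest rises and falls only from genes without overlap.

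Phototransduction, the cascade that turns the capture of light by an opsin into an electrical signal, changed in both directions. Of 36 genes 11 rose and 14 fell (median −0.02). The number that rose was 6 without replicate 3 of control 8 dpf and 7 without replicate 2 of PTU 8 dpf or replicate 3 of PTU 8 dpf. guca1c, an activator gene of guanylate cyclase, stood at −3.29, −2.58 and −2.08 in PTU-exposed eyes, against −0.24, 0.32 and −0.08 in control eyes (−2.70 ± 0.24, adjusted p = 7.07e-07). pde6c, the catalytic subunit gene of the cone phosphodiesterase, had −2.23, −1.80 and −1.54 in PTU-exposed eyes, against −0.02, −0.12 and 0.14 in control eyes. pde6ha, an inhibitory subunit gene of that enzyme, had −2.95, −1.73 and −1.54 in PTU-exposed eyes, against −0.17, −0.08 and 0.24 in control eyes. In all 3 genes PTU replicate 1 was the lowest extract. The groups did not overlap, which the rule requires of the largest falls. slc24a2, a cation exchanger gene of cones, fell by 1.74 ± 0.19.

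Among the phototransduction genes listed here, most of those known from cones fell, while more of those known from rods rose than fell. The red cone opsin gene opn1lw2 is not among these cone genes and rose (1.58 ± 0.16), so the direction does not hold for all cone genes. The division into cone and rod genes was made after the values were seen and is a description only. Of 12 cone genes 8 fell and 1 rose (median −1.5), and these counts were the same with any 1 extract of 8 dpf, or the array that stood apart, left out. As the cone genes were grouped with values in view, this stability partly follows from that choice. Of 10 rod genes 6 rose (median 0.47), and 3 without replicate 3 of control 8 dpf, replicate 2 of PTU 8 dpf or replicate 3 of PTU 8 dpf. Some of the 36 phototransduction genes, among them genes that rose and genes that fell, are in neither list. gnat2, the cone transducin alpha gene, fell by 0.97 ± 0.17, and grk7a, a cone opsin kinase gene, fell by 1.60 ± 0.21, whereas gnb3a, a cone transducin beta gene, rose by 0.52 ± 0.10. gngt1, the rod transducin gamma gene, stood at 0.54, 1.21 and 1.23 in PTU-exposed eyes, against −0.18, 0.36 and −0.19 in control eyes (0.97 ± 0.19, adjusted p = 0.00108). pde6ga, an inhibitory subunit gene of the rod phosphodiesterase, rose by 0.89 ± 0.15. gnat1, the rod transducin alpha gene, had −0.19, 1.08 and 0.92 in PTU-exposed eyes, against −0.49, 0.35 and 0.14 in control eyes and did not pass (0.52 ± 0.25, adjusted p = 0.124). It passed without replicate 1 of PTU 8 dpf (0.94, adjusted p = 0.00539), without replicate 2 of control 8 dpf (0.81, adjusted p = 0.0066) and without the array that stood apart (0.84, adjusted p = 0.00265). PTU replicate 1 was the lowest PTU extract for both gngt1 and gnat1. gnat2, grk7a, gnb3a, gngt1, pde6ga and gnat1 are named after their values were seen.

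Of 7 visual opsins, the light-sensing proteins, 3 rose. opn1lw2, a red cone opsin gene, stood at 1.03, 2.04 and 1.88 in PTU-exposed eyes, against −0.27, 0.16 and 0.11 in control eyes (1.58 ± 0.16, adjusted p = 2.72e-06), and rhol, a rhodopsin-like gene, rose by 0.58 ± 0.11. opn1sw1, the ultraviolet cone opsin gene, had −1.56, −0.19 and −0.72 in PTU-exposed eyes, against −0.43, 0.31 and 0.12 in control eyes. It was the 1 opsin that fell (−0.90 ± 0.23, adjusted p = 0.00791), and this was lost without replicate 1 of PTU 8 dpf (−0.51, adjusted p = 0.0894). The extracts of opn1lw2 did not overlap, and those of opn1sw1 did. Probes of the same gene differed, at 0.75, 0.06 and 0.92 for rhol and −1.20 and −0.62 for opn1sw1.

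**Figure D3:**
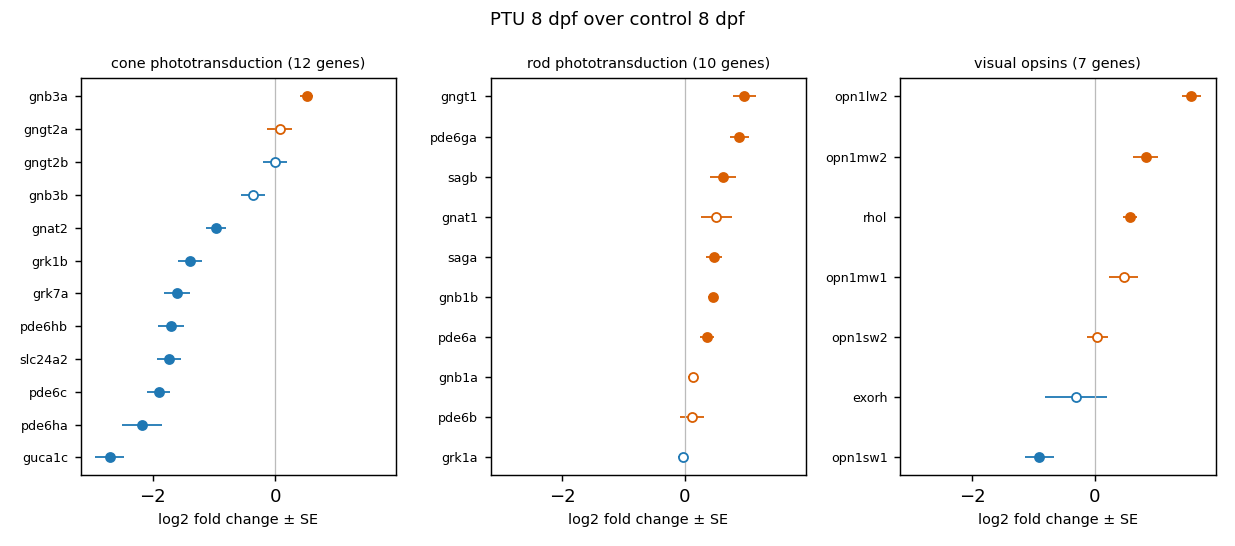
Log2 fold change of PTU 8 dpf over control 8 dpf with its standard error for 12 cone and 10 rod genes of phototransduction and 7 visual opsins. Filled points passed an adjusted p under 0.05, in orange above 0 and in blue below. Most of the listed cone genes lie below 0 (8 of 12 fell), and 6 of 10 rod genes rose. The opsins are drawn apart, and the cone opsin gene opn1lw2 rose.

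The retinoid cycle regenerates the light-sensitive part of the opsins in photoreceptors, pigment epithelium and Mueller glia. Of its 21 genes 2 rose and 10 fell (median −0.35). rpe65a, the isomerase gene of the pigment epithelium, stood at −1.09, −1.08 and −0.78 in PTU-exposed eyes, against −0.02, 0.17 and −0.14 in control eyes (−0.98 ± 0.13, adjusted p = 4.61e-05), and rgrb, a retinal G protein-coupled receptor gene, fell by 1.12 ± 0.11. rlbp1a, a retinaldehyde-binding protein gene, rose by 0.61 ± 0.08, and its probes gave 0.79, 0.94 and 0.10. Of 20 further photoreceptor genes, for structural proteins and transcription factors, 4 rose and 6 fell. neurod1, a transcription factor gene of photoreceptor precursors, had 1.05, 1.18 and 0.99 in PTU-exposed eyes, against −0.08, −0.02 and 0.10 in control eyes. unc119a2, a trafficking protein gene, fell by 1.37 ± 0.13, and nr2e3, a transcription factor gene of rods, rose by 0.82 ± 0.09. The probes of nr2e3 gave 0.41 and 1.22, and those of neurod1 1.47 and 0.66.

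Among cells of the inner retina, 3 of 15 bipolar cell genes (median −0.19) and 5 of 20 ganglion cell genes (median 0.01) rose. These shares are not far from the 19.6% of all genes that rose, so the genes named next do not stand for their lists. gap43, a growth cone protein gene on the ganglion cell list, stood at 1.12, 0.82 and 0.78 in PTU-exposed eyes, against 0.00, 0.20 and −0.20 in control eyes (0.95 ± 0.14, adjusted p = 9.83e-05), and stmn2b, a gene of neurite growth, rose by 0.86 ± 0.11. vsx1, a transcription factor gene of bipolar cells, rose by 0.63 ± 0.10, while the lowest log2 fold change on the bipolar cell list was −1.04. Bipolar cell genes that fell numbered 4, and 2 without replicate 1 of control 5 dpf, replicate 1 of control 8 dpf or replicate 3 of control 8 dpf and 1 without replicate 1 of PTU 8 dpf. Ganglion cell genes that fell numbered 1, and 2 without replicate 2 of control 8 dpf or replicate 1 of PTU 8 dpf and 4 without the array that stood apart. Of 23 genes of synaptic transmission 15 fell (median −0.28), a number that was 4 without replicate 1 of control 8 dpf or replicate 3 of PTU 8 dpf, 3 without replicate 3 of control 8 dpf, 7 without replicate 1 of PTU 5 dpf and 8 without replicate 1 of PTU 8 dpf or replicate 2 of PTU 8 dpf. The median of the synaptic genes lay between −0.33 and −0.25 under the alternatives run, while the number that passed changed.

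Of 15 Mueller glia genes 4 rose, and 2 without replicate 3 of control 8 dpf, replicate 1 of PTU 5 dpf or replicate 3 of PTU 8 dpf. Another 1 fell, and 2 without replicate 3 of control 8 dpf. The share that rose is not far from the 19.6% of all genes, so the glia genes named next do not stand for their list. fabp7a, a fatty acid binding protein gene of glia, stood at 1.31, 1.92 and 1.94 in PTU-exposed eyes, against −0.23, 0.33 and −0.10 in control eyes (1.69 ± 0.15, adjusted p = 6.33e-07), gfap, the glial filament gene, rose by 0.49 ± 0.09, and vim, another filament gene, fell by 0.76 ± 0.14. Of 16 genes of pigment cells and melanin synthesis 5 rose. tspan36, a membrane protein gene of pigment cells, had 0.88, 0.70 and 0.87 in PTU-exposed eyes, against 0.04, 0.21 and −0.25 in control eyes. The groups did not overlap in fabp7a or tspan36. gch2, a pteridine synthesis gene, was among those that fell, by 1.13 ± 0.18. tyrp1b, a melanin synthesis gene, rose by 1.88 ± 0.16.

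Lens genes were mostly lower, and the size of this moved when replicate 1 of PTU 8 dpf was left out with its arrays. The array that stood apart is among these, so the extract and its arrays cannot be told apart here. Of 54 lens crystallins and lens fibre genes 38 fell and 3 rose (median −0.81). 30 fell without the array that stood apart (median −0.62) and 16 without replicate 1 of PTU 8 dpf. The mean level of the lens genes was −1.15, −0.422 and −0.488 in PTU-exposed eyes, against −0.193, 0.217 and −0.024 in control eyes, with PTU replicate 1 the lowest. crygm1, a gamma crystallin gene, stood at −1.68, −1.41 and −1.07 in PTU-exposed eyes, against 0.00, 0.05 and −0.05 in control eyes (−1.41 ± 0.11, adjusted p = 2.29e-07). crygs2, another gamma crystallin gene, had 0.36, 0.74 and 0.81 in PTU-exposed eyes, against −0.01, −0.16 and 0.17 in control eyes, and rose by 0.59 ± 0.09. Neither gene had overlapping extracts. Crystallin genes are similar in sequence, and probes may not tell close copies apart.

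The circadian clock is a loop in which activators drive the genes of their own repressors, and in zebrafish light resets it in most tissues. Of 29 genes of the clock and its outputs 7 rose and 18 fell (median −0.56). nr1d1, a repressor gene, stood at −2.04, −2.22 and −1.90 in PTU-exposed eyes, against −0.22, 0.00 and 0.22 in control eyes (−2.07 ± 0.16, adjusted p = 2.03e-07), and its 2 probes gave −2.68 and −1.47. per1b, a period gene, had −1.74, −2.07 and −1.81 in PTU-exposed eyes, against −0.07, −0.04 and 0.12 in control eyes, and cry2, a cryptochrome gene, had −1.97, −1.66 and −1.64 in PTU-exposed eyes, against −0.19, 0.05 and 0.14 in control eyes. All 3 were lower in each PTU extract than in any control extract, which the rule requires of the largest falls. ciarta, a further repressor gene, fell by 1.53 ± 0.10. aanat1 and aanat2, genes of melatonin synthesis, rose by 1.24 ± 0.09 and 1.21 ± 0.09. Of genes named after their values were seen, dbpa and tefa, output transcription factor genes, fell by 1.3 ± 0.13 and 1.28 ± 0.16, and bmal1a, an activator gene, rose by 0.63 ± 0.10. Eyes were taken within a few hours of the morning, and the order in which the groups were sampled is not stated. A shift of the rhythm, a change of its height and a difference in sampling time between the groups cannot be told apart.

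Genes of thyroid hormone receptors alpha and beta were lower. thraa, a receptor alpha gene, stood at −0.71, −0.83 and −0.82 in PTU-exposed eyes, against −0.05, 0.00 and 0.05 in control eyes (−0.78 ± 0.11, adjusted p = 5.48e-05). thrb, the receptor beta gene, had −0.77, −0.65 and −0.70 in PTU-exposed eyes, against 0.13, 0.05 and −0.18 in control eyes, fell by 0.70 ± 0.10, and its 3 probes gave −0.87 to −0.52. The 3 PTU extracts lay below the 3 control extracts in both genes. dio2, the gene of the deiodinase that activates the hormone, rose by 0.34 ± 0.06, and dio1, another deiodinase gene, was at 0.02 ± 0.07 and did not pass (adjusted p = 0.839). Of the 7 genes of receptors, deiodinases and transport 2 rose and 3 fell. The number that rose was 1 without replicate 3 of control 8 dpf, replicate 1 of PTU 5 dpf or replicate 1 of PTU 8 dpf.

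Most measured genes of the cell cycle rose. Of 41 genes of DNA replication 36 rose (median 0.47), and 28 to 36 with 1 extract of 8 dpf left out. Of 26 genes of mitosis 23 rose (median 0.45), and 19 to 22 with 1 left out. mcm5, a gene of the replicative helicase, stood at 1.17, 0.85 and 1.22 in PTU-exposed eyes, against 0.02, 0.16 and −0.18 in control eyes (1.1 ± 0.09, adjusted p = 2.89e-07), and dnmt1, a DNA methyltransferase gene, rose by 0.57 ± 0.06. aurkb, a kinase gene of chromosome segregation, had 1.3, 0.69 and 1.24 in PTU-exposed eyes, against 0.32, 0.04 and −0.36 in control eyes. In both mcm5 and aurkb PTU replicate 2 was the lowest PTU extract, above all controls. The mean level of the mitosis genes was 0.575, 0.275 and 0.518 in PTU-exposed eyes, against 0.105, 0.011 and −0.116 in control eyes.

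Of 37 genes that help proteins fold in the endoplasmic reticulum 23 rose (median 0.38). pdia3, a disulfide isomerase gene, stood at 1.56, 0.96 and 0.95 in PTU-exposed eyes, against −0.05, −0.01 and 0.06 in control eyes (1.19 ± 0.12, adjusted p = 2.37e-06). The groups were apart by more than their spread. Of 22 genes of amino acid stress and tRNA synthetases 13 rose (median 0.28), among them qars1 with 0.71 ± 0.06. Of 40 redox genes 13 rose (median 0.06), among them txnb, a thioredoxin gene, with 1.5 ± 0.13. Of 79 genes of the mitochondrial respiratory chain 28 rose (median 0.22), but 9 without replicate 3 of control 8 dpf and 14 without replicate 3 of PTU 8 dpf. Of 79 genes of cytosolic ribosomal proteins 0 rose in limma (median −0.02), and 3 were higher and 1 lower at an unadjusted p under 0.05. The number that rose was 2 without replicate 1 of control 5 dpf and 1 without replicate 2 of control 8 dpf or replicate 1 of PTU 8 dpf.

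**Figure D4:**
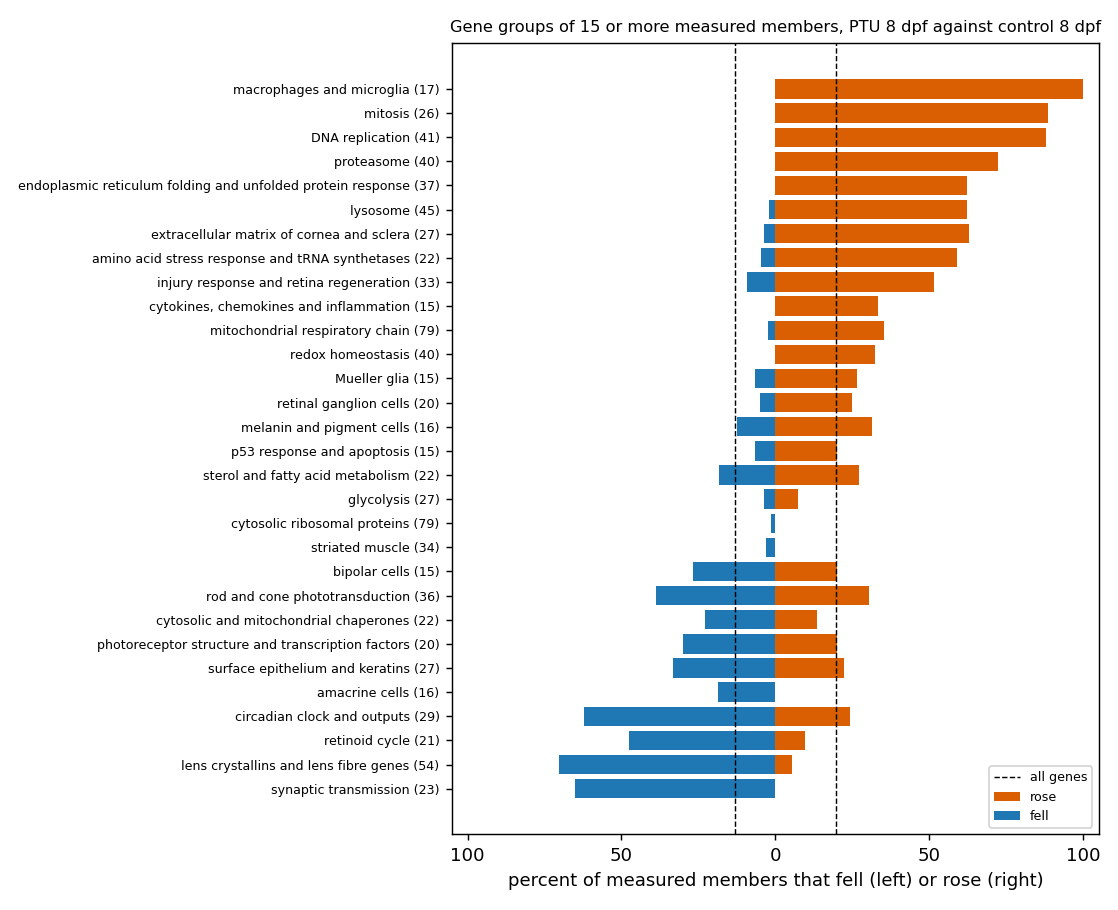
Percent of the measured members of 30 gene groups, those with 15 or more members (number in brackets), that rose (orange, right) or fell (blue, left) in PTU 8 dpf against control 8 dpf. Dashed lines mark the shares over all 8445 genes, 19.6% for rises and 13.2% for falls. All 17 macrophage genes rose, and 0 of 79 ribosomal protein genes did.

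Matrix genes of cornea and sclera rose in 17 of 27 cases (median 0.51), and 10 without replicate 1 of PTU 8 dpf. tgfbi, an abundant matrix protein gene of the cornea, stood at 1.58, 1.07 and 1.41 in PTU-exposed eyes, against −0.01, 0.08 and −0.07 in control eyes (1.38 ± 0.14, adjusted p = 3.94e-06). kera, the keratocan gene of the corneal stroma, had −1.05, −1.01 and −1.28 in PTU-exposed eyes, against 0.20, 0.15 and −0.34 in control eyes and was the 1 that fell. Both genes had extracts that did not overlap, in opposite directions. In the surface epithelium, 9 of 27 genes fell, and 4 without replicate 1 of PTU 8 dpf, while 6 rose. The number that rose was 2 without replicate 1 of control 8 dpf or replicate 3 of PTU 8 dpf, 1 without replicate 3 of control 8 dpf and 3 without replicate 1 of PTU 5 dpf or replicate 2 of PTU 8 dpf. cdh1, the cadherin gene of epithelial junctions, rose by 1.62 ± 0.16. krt96, a keratin gene, had −1.95, −0.75 and −1.14 in PTU-exposed eyes, against −0.26, 0.32 and −0.07 in control eyes, with PTU replicate 1 the lowest.

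Few genes of striated muscle and of gut and exocrine pancreas passed, and their levels differed among the PTU extracts. Of 34 striated muscle genes 0 rose and 1 fell in limma, and 0 were higher and 1 lower at an unadjusted p under 0.05. Of 14 genes of gut and exocrine pancreas 0 rose and 0 fell, 0 were higher and 0 lower at an unadjusted p under 0.05, and the number that fell was 1 without replicate 2 of control 8 dpf. Their log2 fold changes lay between −0.345 and −0.035 (median −0.19). The mean level was −0.088, 0.067 and −0.586 in PTU-exposed eyes, against 0.038, −0.009 and −0.029 in control eyes. With such a spread a change may not pass, so the counts do not show that these genes were unchanged. Of 14 genes of liver and plasma proteins 3 rose and 2 fell, and the number that fell was 1 without replicate 3 of control 8 dpf. These shares are close to the 19.6% and 13.2% of all genes, so the genes named next do not stand for their list. tfa, a transferrin gene, rose by 1.83 ± 0.32. The probes of tfa gave 0.94 to 2.35. ambp, a plasma protein precursor gene of the liver, showed the largest fall of the genes ranked, with −2.77, −2.99 and −2.75 in PTU-exposed eyes, against −0.31, 0.56 and −0.25 in control eyes (−2.81 ± 0.17, adjusted p = 1.3e-08). The mean level of the liver genes was −0.044, −0.258 and −0.079 in PTU-exposed eyes, against −0.083, 0.123 and −0.04 in control eyes. ambp lay below that mean in each PTU extract.

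Most genes that had changed at 8 dpf had changed in the same direction at 5 dpf. Of the 1651 genes that rose at 8 dpf, 1062 had risen at 5 dpf, 83 had fallen and 506 had not passed. Of the 1116 that fell, 722 had fallen, 29 had risen and 365 had not passed. The shares of all genes that rose or fell at 5 dpf are not given here. How far these overlaps, and the 5 dpf counts of gene groups below, exceed those shares was not tested. The difference between the effects was tested for each gene and was more positive at 8 than at 5 dpf in 1003 genes (11.9%) and more negative in 584 (6.92%). These counts moved when single extracts were left out with their arrays. Replicate 1 of PTU 5 dpf and replicate 1 of control 5 dpf lay on 4 arrays each, and every other extract on 2. They were 409 and 177 without replicate 1 of PTU 5 dpf, 450 and 259 without replicate 3 of control 8 dpf, 534 and 312 without replicate 3 of PTU 8 dpf, and 591 and 318 without replicate 1 of control 5 dpf. The number more negative was also 382 without replicate 2 of PTU 8 dpf and 384 without replicate 3 of control 5 dpf.

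By group, the difference was mostly positive in genes of photoreceptors and the lens, many of which had fallen at 5 dpf. Of 36 genes of phototransduction 28 had fallen at 5 dpf, with a median of −1.1, and the effect was more positive at 8 dpf in 22 and more negative in 0. Of 54 lens genes 50 had fallen at 5 dpf (median −1.91), and 34 were more positive at 8 dpf, a number that was 20 without replicate 1 of control 5 dpf, 14 without replicate 3 of control 8 dpf, 19 without replicate 1 of PTU 5 dpf and 17 without replicate 3 of PTU 8 dpf. crygm1 had −1.41 at 8 dpf and −2.69 at 5 dpf (difference 1.28 ± 0.15, adjusted p = 6.65e-05), and rpe65a had −0.98 and −2.56 (difference 1.58 ± 0.18, adjusted p = 5.79e-05). Of 17 macrophage genes 16 had already risen at 5 dpf (median 1.35), and 11 were more positive at 8 dpf. In some lists of stress and injury genes negative differences were more frequent. Of 33 injury response genes 13 were more negative at 8 dpf (8 without replicate 1 of PTU 5 dpf), of 22 genes of amino acid stress 12 (6 without replicate 1 of PTU 5 dpf) and of 22 chaperone genes 9 (4 without replicate 1 of PTU 5 dpf). Of 40 redox genes 7 were more positive and 4 more negative, and without replicate 1 of PTU 5 dpf 3 and 1. The number more positive was also 3 without replicate 3 of control 8 dpf and 4 without any 1 of replicates 2 and 3 of PTU 5 dpf and of PTU 8 dpf.

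Some genes that rose at 8 dpf lay near 0 at 5 dpf. cd74b had a log2 fold change of 2.3 at 8 dpf and 0.01 at 5 dpf (difference 2.28 ± 0.13, adjusted p = 9.74e-08), and ccl34b.1 had 2.00 and 0.08 (difference 1.93 ± 0.12, adjusted p = 2.08e-07). Neither had passed at 5 dpf. Both are among the genes that the rule picks by the p of this difference, so their small p partly follows from that choice. zgc:153405 was at 3.05 and 0.30 (difference 2.75 ± 0.38, adjusted p = 0.00026), and neurod1 at 1.06 and −0.03 (difference 1.1 ± 0.13, adjusted p = 7.09e-05). Genes of photoreceptors included effects of opposite sign at the 2 ages. opn1lw2 was at 1.58 at 8 dpf and −0.51 at 5 dpf (difference 2.09 ± 0.21, adjusted p = 2.79e-05), and gngt1 at 0.97 and −1.49 (difference 2.46 ± 0.25, adjusted p = 2.79e-05), and both had fallen at 5 dpf. The cone gene pde6ha was low at both ages, at −2.18 and −4.94 (difference 2.76 ± 0.44, adjusted p = 0.000645).

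Clock genes differed between the ages in both directions. Of 29 genes 7 were more negative at 8 dpf (3 without replicate 3 of control 8 dpf and 4 without replicate 1 of PTU 5 dpf) and 6 more positive (3 without replicate 3 of control 5 dpf, 3 without replicate 1 of PTU 5 dpf and 3 without replicate 2 of PTU 8 dpf). aanat2 and bmal1a were more positive, by 0.73 ± 0.12 and 0.89 ± 0.14. ciarta had −1.53 at 8 dpf and −0.40 at 5 dpf (difference −1.13 ± 0.14, adjusted p = 8.69e-05), and nr1d1 had −2.07 and −1.05 (difference −1.02 ± 0.22, adjusted p = 0.00483), and without replicate 3 of control 8 dpf the adjusted p of the nr1d1 difference was 0.0521. For per1b the values were −1.87 and −1.53, and the difference did not pass (difference −0.34 ± 0.24, adjusted p = 0.356). atf3, on the injury list, and c7b, a complement gene, had smaller rises at 8 dpf. atf3 was at 2.04 and 3.81 (difference −1.78 ± 0.18, adjusted p = 2.79e-05), and c7b at 1.52 and 2.88 (difference −1.36 ± 0.14, adjusted p = 2.24e-05). cfp, another complement gene, had 2.59 and 1.35 (difference 1.24 ± 0.20, adjusted p = 0.000936).

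**Figure D5:**
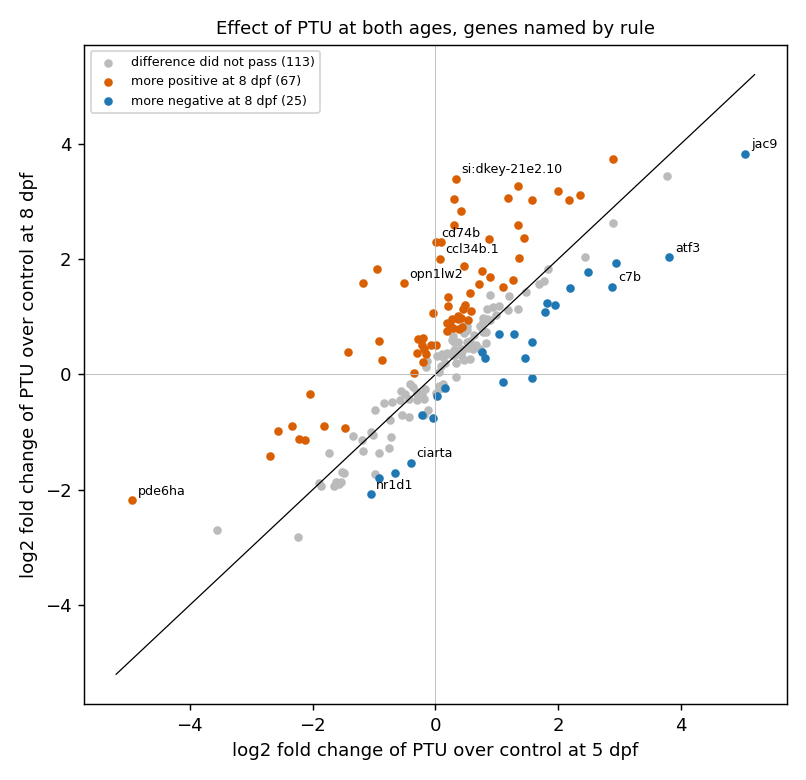
Log2 fold change of PTU over control at 5 dpf (x axis) and at 8 dpf (y axis) for the 205 genes that the rule for named genes picks, with the line of equal effects. The effect was more positive at 8 dpf for 67 genes (orange) and more negative for 25 (blue), and for 113 (grey) the difference did not pass. The rule picks some genes by the p of this difference, so these counts partly follow from it. Over all genes the shares were 11.9% and 6.92%. cd74b and ccl34b.1 lie near 0 at 5 dpf.

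Other groups moved less or in a few members. Of 7 interferon response genes 3 rose, among them irf1b, a transcription factor gene, with 1.43 ± 0.12, and irf9 with 1.12 ± 0.10. Of 22 genes of sterol and fatty acid metabolism 6 rose and 4 fell (median −0.10), among the rises fabp4a and fabp4b, genes of fatty acid binding proteins, with 1.83 ± 0.13 and 1.59 ± 0.12. The number of these genes that fell was 7 without replicate 2 of control 8 dpf and 2 without replicate 3 of control 8 dpf or replicate 3 of PTU 8 dpf. fabp4a stood at 2.02, 1.60 and 1.79 in PTU-exposed eyes, against 0.20, −0.15 and −0.06 in control eyes. The groups were apart in fabp4a. Of 22 cytosolic and mitochondrial chaperone genes 3 rose and 5 fell, and the number that fell was 1 without replicate 1 of control 8 dpf or replicate 1 of PTU 8 dpf and 3 without replicate 2 of control 8 dpf. hsf2, a heat shock factor gene, fell by 1.09 ± 0.14, and hspa4b, a co-chaperone gene, rose by 0.79 ± 0.16. Of 27 glycolysis genes 2 rose, a number that was 0 without replicate 1 of control 8 dpf, replicate 3 of control 8 dpf, replicate 2 of PTU 8 dpf or replicate 3 of PTU 8 dpf, and of 12 endothelial genes 3 rose. Of 16 amacrine cell genes 3 fell, and 1 without replicate 1 of control 8 dpf, replicate 3 of control 8 dpf, replicate 1 of PTU 5 dpf, replicate 2 of PTU 8 dpf or replicate 3 of PTU 8 dpf.

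Transcripts without a gene made up 18.2% of those called, against 18.9% of all 16913. Of 1081 transcripts called, 107 of those up-regulated and 90 of those down-regulated had no gene listed. Probe A_15_P560952 stood at 5.58, 4.83 and 5.74 in PTU-exposed eyes, against 0.22, −0.11 and −0.10 in control eyes, with a log2 fold change of 5.41 ± 0.27. A_15_P138416 followed with 4.04 ± 0.16, and A_15_P684383 and A_15_P119523 were lowest with −1.94 ± 0.18 and −1.93 ± 0.16. For these probes ± is the SE of the fit of transcripts, which took arrays as independent. The extracts did not overlap in these 4 probes.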

How the data were processed

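RNA of whole eyes was hybridised in pairs, 1 extract per dye, on 14 two-colour Agilent zebrafish arrays in a design that connects 12 extracts. The study describes the 3 extracts of a group as biological replicates. The deposited values are log2 ratios of Cy5 over Cy3 per probe, which the authors made with GenePix Pro and limma 3.34.4. They left out spots below background plus 2 SD on all arrays, applied normexp background correction and loess normalisation within each array. The table names neither the log base nor the direction, which were taken from the methods and the dye labels.

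Each array was turned to the group contrasts and all 14 were fitted in limma 3.58.1 (R 4.3.3) with 1 coefficient per group, so that arrays linking the ages add to the estimate at 8 dpf. Transcripts were fitted with arrays as independent. For genes, probe means were fitted with the RNA extract as a random effect (variance ratio 0.138), and SE is that of this model with 11 residual degrees of freedom. Levels per extract are least-squares values. P-values were adjusted by Benjamini-Hochberg over all probes or genes, and no list was tested. Of 16914 probes 1 control was left out and 13708 had a gene, 11865 through an accession, 1446 through a current symbol, 391 through an older one and 6 through the platform symbol alone, which gave 8445 genes, 3499 of them with more than 1 probe. Values of single probes are printed for some genes only, and probes of further named genes also differed. Arrays give no depth, and their number limits the precision.

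Genes were named by rule, namely the 15 largest rises and falls without overlap of extracts, at most 4 genes of a list, those of smallest p, thyroid hormone receptors and deiodinases, and the 6 smallest p of the difference between ages in each direction. This rule picks 205 genes, of which 83 are described in the text, chosen from them for their roles with values in view, and the rest enter the counts and figures alone. A further 13 genes are marked as named after their values were seen. The members and lists were chosen with earlier results of these data known. The fits were also run on simulated data, with noise independent between genes and no array that stood apart. Such data differ from the real arrays, so that run does not show how far the counts here hold. Alternatives were centring, scaling, a dye effect, independence of arrays, a level per extract, the 4 arrays alone, a replicate block, robust moderation, other fold thresholds, the most variable probe per gene, turned signs, each extract left out and, chosen after seeing the data, 1 array left out. Figures were drawn with matplotlib 3.10.9.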

Additional observations from a re-analysis of the deposited data

Results flagged for a closer look

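Of the 96 genes named above, 60 had a log2 fold change of PTU over control that differed between 8 and 5 dpf at an adjusted p under 0.05 (limma over all 8445 genes). The values are the log2 fold change at 8 dpf minus that at 5 dpf. The effect was more positive at 8 dpf for 48 of them and more negative for 12. Over all genes the shares were 11.9% and 6.92%. The rule picks some genes by the p of this same difference, and those described were chosen with values in view. The counts among named genes thus partly follow from that choice. Among genes of immune cells and lysosomes, the differences were cd74b (2.28), cd74a (2.21), ccl34b.1 (1.93), apoc1 (1.92), npc2.2 (1.88), cfp (1.24), spi1b (0.92), lgmn (0.87), lgals9l1 (0.85), asah1b (0.84), lcp1 (0.76), coro1a (0.66), irf8 (0.65), b2m (0.63) and ctsc (0.37). Among genes of granulins, lectins and those without a descriptive name, the differences were zgc:153405 (2.75), zgc:110216 (2.42), si:dkey-21e2.14 (2.3), grna (1.48), grna.1 (1.45), grna.2 (0.84) and jac9 (−1.22). Among genes of photoreceptors and the retinoid cycle, the differences were pde6ha (2.76), gngt1 (2.46), opn1lw2 (2.09), rpe65a (1.58), rhol (1.51), gnat1 (1.45), opn1sw1 (1.43), grk7a (1.3), pde6ga (1.19), neurod1 (1.1), rgrb (1.1), rlbp1a (0.90), gnb3a (0.89) and gnat2 (0.80). Among genes of the clock and its outputs, the differences were bmal1a (0.89), aanat2 (0.73), aanat1 (−0.59), cry2 (−0.87), nr1d1 (−1.02) and ciarta (−1.13). Among genes of stress, injury and the matrix, the differences were mmp14b (0.40), qars1 (−0.33), txnb (−0.70), mmp9 (−0.71), socs3a (−1.01), c7b (−1.36) and atf3 (−1.78). Among genes of the lens, neurons, glia, cell cycle, pigment cells, plasma proteins and fatty acid binding, they were tfa (2.78), fabp4b (2.77), tyrp1b (1.4), crygm1 (1.28), vsx1 (0.83), fabp7a (0.80), aurkb (0.68), stmn2b (0.62), mcm5 (0.52), the deiodinase gene dio1 (0.37) and vim (−0.73). The call was lost in at least 1 fit with an extract, or the array that stood apart, left out for aurkb, ctsc, dio1, fabp7a, gnat1, gnat2, grk7a, irf8, jac9, mcm5, mmp14b, mmp9, nr1d1, opn1sw1, qars1, stmn2b, txnb and vim, 18 genes in all.

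For 2 of the 96 genes tested, 1 array lay farther from the other 3 than Dixon's critical value for 4 values. Chance passes that value in about 1 of 20 groups of independent values, and 2 of 96 is below that rate. The 4 arrays share extracts and are not independent, so the flags are a description only. The log2 ratios of dio2 on the 4 arrays were 0.31 (PTU 1 over control 2), 0.31 (PTU 1 over control 1), 0.39 (PTU 3 over control 3) and 0.32 (PTU 2 over control 3), and those of hsf2 were −0.93 (PTU 1 over control 2), −0.97 (PTU 1 over control 1), −0.96 (PTU 3 over control 3) and −1.41 (PTU 2 over control 3). The highest array for dio2 was PTU replicate 3 over control replicate 3 (0.39), and for hsf2 PTU replicate 2 over control replicate 3 lay apart (−1.41).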

How the results depend on the processing

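The counts of transcripts past the fold threshold stayed within 1.5 times under every alternative that kept that threshold and the direction of the ratios. With no fold threshold 3092 were higher and 2536 lower, and past 1 on the log2 scale 383 were higher and 222 lower. With the 4 arrays of 8 dpf alone 968 genes rose and 575 fell, and 945 and 554 of these were among the genes called with all 14 arrays. With a least-squares level per extract 690 genes fell, and the difference between ages was more positive in 442 and more negative in 202. With all signs turned, which only exchanges higher and lower, the difference counts were 584 and 1003. With 1 extract left out, 623 to 710 transcripts were higher and 372 to 487 lower, 1003 to 1707 genes rose and 703 to 1181 fell, and the difference was more positive in 409 to 1299 genes and more negative in 177 to 792. Without the array that stood apart, 1715 genes rose and 1238 fell, and the difference was more positive in 1303 and more negative in 826. The causes were not tested.

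Whether the replicate numbers of the labels pair the extracts could not be decided. The deviations of PTU and control extracts of 1 number from their group means correlated at 0.627, 0.172 and −0.221. Those of unequal numbers correlated at −0.51 to 0.49. With 3 extracts per group, some of which share arrays, these values neither show nor exclude pairing. With the replicate number as a block 1526 genes rose and 1021 fell, and 644 transcripts were higher and 438 lower. The difference between ages was then more positive in 926 genes and more negative in 536. None of these differed by over 1.5 times from the fit without the block. Of the 93 named genes that passed, 92 did so under each of 22 alternatives, and opn1sw1 did not (−0.82, adjusted p = 0.09, with a level per extract). Most named genes were picked for large changes or small p in the main fit of the same data. Their stability therefore partly follows from that choice and does not extend to all genes, whose counts moved as given above. Apart from the exchange of all signs, dio1, which did not pass, was the 1 named gene whose sign changed, to −0.004704 with a level per extract, and it ranged between −0.02155 and 0.06803 with 1 extract left out. A filter on dim probes could not be tried, since the table holds no intensities, so what signal over background limits was not measured here.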
